A study of Mus musculus with 12 samples.

Results

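The genes described here are the 33 genes that encode the proteins of the small (40S) subunit of the cytoplasmic ribosome, out of 10126 genes in the deposited table of the series. They were chosen by name, as protein-coding genes called Rps with a number, together with Rpsa and Fau. Of the other symbols that begin with Rps in that table, 7 Rps6k kinases and Rps19bp1, which binds Rps19, were left out. Rps3a1 was kept, although a strict reading of the symbols would give 32 genes. Total cytoplasmic RNA and ribosome-protected fragments (RPFs) had been sequenced in 12 libraries of CD4 T cells of female mice on a C57B6/J background. The controls were *Rnmt* fl/fl CD4cre - and carried the floxed allele without Cre, and the knockouts (*Rnmt* cKO) were *Rnmt* fl/fl CD4cre +. In the floxed allele exon 3 of *Rnmt*, the gene of the RNA cap guanosine N-7 methyltransferase, lies between loxP sites, and the Cre transgene is driven by *Cd4* sequences, so that deletion takes place in T cells. In both genotypes naive CD4 T cells had been isolated from lymph nodes with a magnetic kit and activated for 20 h on plates coated with anti-CD3 (5 ug/ml) and anti-CD28 (1 ug/ml), and then held in 0.1 mg/ml cycloheximide, which arrests ribosomes on mRNA, for 1 min before lysis. There were 3 total RNA and 3 RPF libraries per genotype, and the ages of the mice were not given in the sources used here. Total RNA libraries held 19056917, 18915961 and 19111659 reads counted on genes in controls and 15079703, 18803007 and 22629563 in *Rnmt* cKO cells. RPF libraries held 10661356, 6786164 and 8214622 such reads in controls and 8349463, 10166729 and 4123271 in *Rnmt* cKO cells.

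The 40S subunit binds mRNA, carries it through the decoding centre and is built in the nucleolus and cytoplasm from 18S rRNA and about the same set of proteins in every cell. Its proteins are arranged in a head, which holds Rps3 and Rps19 among others, and in a body and platform. Ribosomal protein mRNAs are the classical TOP mRNAs, which begin with a C and a run of pyrimidines directly after the cap. TOP mRNAs are stored or translated together according to growth signals, and T cells make large numbers of new ribosomes when they leave quiescence.

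To show what the starts of these genes look like, 30 bases around the annotated start, 15 on either side, were read on the strand of the gene from RefSeq promoter sequences of GRCm38.p6 (the first entry of a gene) for 25 of the 33 genes. The longest run of C and T letters in the window is in capitals.
Rps9: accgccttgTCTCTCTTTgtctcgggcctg
Rps21: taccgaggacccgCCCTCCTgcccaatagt
Rps18: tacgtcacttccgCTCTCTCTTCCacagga
Rps19: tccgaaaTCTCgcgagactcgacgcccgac
Rps2: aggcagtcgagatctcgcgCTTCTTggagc
Rpsa: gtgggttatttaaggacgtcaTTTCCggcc
Rps27: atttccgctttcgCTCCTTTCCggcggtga
Fau: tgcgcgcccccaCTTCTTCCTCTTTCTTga
Rps6: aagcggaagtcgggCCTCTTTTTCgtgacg
Rps27l: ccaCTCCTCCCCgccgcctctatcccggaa
These include genes with low and high fold changes in the tests below, and Rps6 was added after its values were seen. The windows lie at chr7:3704026-3704055 (plus strand) for Rps9, chr2:180257364-180257393 (plus) for Rps21, chr17:33955651-33955680 (minus) for Rps18 and chr7:24884577-24884606 (plus) for Rps19. Those of Rps2 and Rpsa lie at chr17:24720048-24720077 (plus) and chr9:120127751-120127780 (plus). The windows of Rps27 and Rps27l are at chr3:90213634-90213663 (minus) and chr9:66946071-66946100 (plus), that of Fau at chr19:6057932-6057961 (plus) and that of Rps6 at chr4:86857353-86857382 (minus). The median length of the longest run was 7 letters over the 25 genes and 4 over 8158 protein-coding genes tested in total RNA. A run of at least 7, a limit taken from the median of the 25 genes themselves so that their own share of 52% (13 of 25) is largely fixed by it, was found in 17.6% of the 8158 windows. Runs that cross the annotated start are seen in Rps9, Rps21, Rps18, Rps27, Fau and Rps6, whereas in Rps19, Rps2, Rpsa and Rps27l the longest run lies off the start. A RefSeq start need not be the start used in T cells, and a run is a description of letters only.

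The counts of *Rnmt* cover all of its exons, of which exon 3 is the deleted one, and they were lower in *Rnmt* cKO cells. *Rnmt* total RNA was 95.3, 93.9 and 94.1 CPM (counts scaled to library size by edgeR's TMM method) in the control libraries and 29.3, 32.3 and 30.3 CPM in *Rnmt* cKO cells, and its RPFs were 103.8, 87.7 and 98.7 CPM and 10.5, 10.3 and 9.57 CPM. The groups did not overlap in either kind of library, with a log2 fold change of -1.62 ± 0.06 in total RNA and -3.24 ± 0.10 in RPF (here and below, ± after a log2 value is its standard error).

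In total RNA, 28 of the 33 genes were decreased in *Rnmt* cKO cells and 0 were increased, by the quasi-likelihood test of edgeR with p-values adjusted over all genes (Benjamini-Hochberg) and a threshold of 0.05. In the same test 28.0% of 11519 genes were decreased and 26.3% increased. The median log2 fold change of the 33 genes was -0.74, beside -0.004 for all genes tested, and it ran from -1.41 for Rps20 to 0.01 for Rps27l. For 29 of the 33 genes the highest *Rnmt* cKO library was under the lowest control library, which was so for 32.3% of all genes tested. All 33 genes passed the filter on low counts, a CPM above 1 in at least 3 of 6 libraries. They had been chosen from the 10126 genes of the authors' table, a smaller set than the 11519 genes tested. Passing was thus in part set by that choice. Fold changes are relative to the RNA sequenced in each library, so that a change in mRNA per cell is not included, and in bulk libraries fewer cells of a type and less RNA per cell cannot be told apart.

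Together the 33 genes held 2.05, 2.09 and 1.83% of protein-coding counts in the control total RNA libraries and 1.11, 0.994 and 1.15% in those of *Rnmt* cKO cells. The means were 1.99 ± 0.142% and 1.08 ± 0.0786% (SD, n = 3), and the genotypes did not overlap. In RPF the shares were 0.936, 0.918 and 0.971% in controls and 0.985, 0.982 and 0.911% in *Rnmt* cKO cells, with means of 0.941 ± 0.0271% and 0.959 ± 0.0421% (SD, n = 3). The RPF shares of both genotypes overlapped. Rps3 and Rps9 gave 20.3 and 8.19% of the 40S counts in control total RNA, as counts not scaled by length.

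The largest fall in total RNA was that of Rps20, a protein of the head. Rps20 was at 1073, 1089 and 947 CPM in the controls and 377, 375 and 421 CPM in *Rnmt* cKO cells. The groups were far apart, with a log2 fold change of -1.41 ± 0.08 (edgeR adjusted p = 1.4e-05), or 37.7% of control. Rpsa, a platform protein also known as the laminin receptor, had 264, 273 and 235 CPM in controls and 101, 91.7 and 116 CPM in *Rnmt* cKO cells. Its log2 fold change was -1.32 ± 0.10 (edgeR adjusted p = 3.4e-05), and again no library of one genotype reached the range of the other. Rps9, a body protein that contacts the mRNA entry channel, had 1220, 1239 and 1071 CPM in controls and 522, 496 and 522 CPM in *Rnmt* cKO cells, which gives a log2 fold change of -1.20 ± 0.07 (edgeR adjusted p = 1.7e-05). Rps21, a small protein of the body, had 384, 385 and 357 CPM in controls and 170, 161 and 161 CPM in *Rnmt* cKO cells (log2 fold change -1.19 ± 0.06). Rps4x (log2 fold change -1.12), and Rps12 (-1.18), Rps29 (-1.13) and Rps26 (-1.01), which are named after their values were seen, also fell to under 50% of control.

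Rps3 and Rps19 are head proteins that the study also examined by blotting, and it reports less of both proteins in activated *Rnmt* cKO cells. The values given here are of RNA and footprints and do not measure protein. In total RNA both genes fell by more than the median of the list. Rps3, which lines the mRNA entry site, was at 3030, 3073 and 2651 CPM in the controls and 1587, 1479 and 1755 CPM in *Rnmt* cKO cells. Rps19, which is needed for maturation of 18S rRNA and is mutated in Diamond-Blackfan anaemia, had 523, 551 and 425 CPM in controls and 259, 230 and 270 CPM in *Rnmt* cKO cells. In both, every *Rnmt* cKO library lay below the controls. Their log2 fold changes were -0.86 ± 0.09 (edgeR adjusted p = 1.3e-04) and -0.98 ± 0.11 (edgeR adjusted p = 2.0e-04). Rps18, also of the head, had 206, 201 and 176 CPM in controls and 110, 94.8 and 114 CPM in *Rnmt* cKO cells, again without overlap (log2 fold change -0.87 ± 0.09).

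The 5 genes that did not pass the test in total RNA were Rps16, Rps27a, Fau, Rps6 and Rps27l. Rps16 and Rps6 are outside the rule for named genes and are given because this count is small. For Rps16 the values were scattered within each genotype, at 61.9, 103 and 80.4 CPM in controls and 76.1, 45.6 and 27.0 CPM in *Rnmt* cKO cells, and its log2 fold change of -0.73 had a standard error of 0.34. Rps27a, which is made as a fusion with ubiquitin, had 15.6, 14.7 and 22.5 CPM in controls and 16.2, 11.7 and 12.3 CPM in *Rnmt* cKO cells (log2 fold change -0.40 ± 0.19), and the groups overlapped. Fau, whose 40S protein is made as a fusion with a ubiquitin-like protein, was just short of the threshold, with 20.9, 22.7 and 18.0 CPM in controls and 15.9, 17.0 and 17.6 CPM in *Rnmt* cKO cells. Its libraries did not overlap, and its log2 fold change was -0.28 ± 0.10 (edgeR adjusted p = 0.0501). Rps6, the substrate of the S6 kinases, was counted at 9.32, 9.19 and 8.02 CPM in controls and 8.26, 7.83 and 8.84 CPM in *Rnmt* cKO cells. These overlapped, with a log2 fold change of -0.09 ± 0.11. Rps13, a body protein, was the called gene with the smallest fall among those whose average log2 CPM reached 4, at 29.8, 29.6 and 26.2 CPM in controls and 22.2, 17.5 and 23.0 CPM in *Rnmt* cKO cells (log2 fold change -0.45 ± 0.12, edgeR adjusted p = 0.012).

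Rps27 and Rps4x each have a paralogue. Rps27 had 4.55, 4.44 and 5.16 CPM in control total RNA and 3.25, 2.99 and 3.49 CPM in *Rnmt* cKO cells. Its log2 fold change was -0.54 ± 0.14 (edgeR adjusted p = 0.013, 0.054 from DESeq2), with no overlap. Rps27l, a paralogue of Rps27 that is induced by p53, had 150, 163 and 139 CPM in controls and 143, 147 and 166 CPM in *Rnmt* cKO cells. These overlapped throughout, with a log2 fold change of 0.01 ± 0.08. The difference between both fold changes was not tested. Of the 29-base stretches in coding sequence, 0% in Rps27 and 37.5% in Rps27l were found in no other gene. For the whole transcript these shares were 1.26% and 69.6%. Their CPM, which are of uniquely aligned reads, therefore cannot be compared as levels of both genes. Rps4x, the X-linked copy, was at 201, 199 and 189 CPM in controls and 93.2, 91.8 and 85.4 CPM in *Rnmt* cKO cells (log2 fold change -1.12 ± 0.06). Its paralogue Rps4l, which GENCODE vM21 annotates as a transcribed pseudogene and which is not among the 33, was counted in few reads, 9, 18 and 9 counts in the control total RNA libraries and 3, 9 and 13 in those of *Rnmt* cKO cells.

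**Figure D1:**
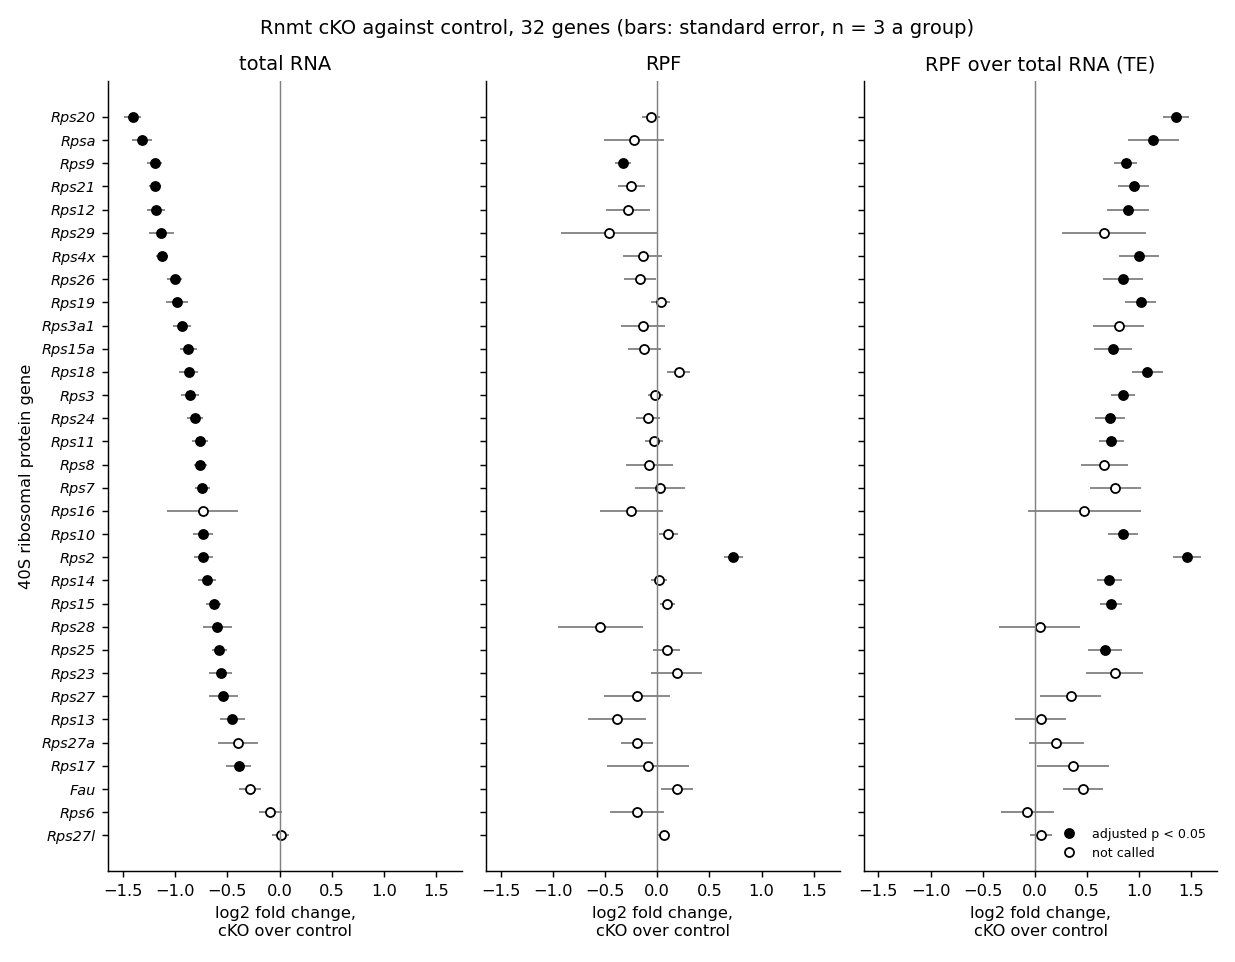
Log2 fold change of *Rnmt* cKO over control for 32 of the 33 genes in total RNA, RPF and RPF over total RNA, in the order of total RNA. Bars are standard errors and filled points passed the threshold; 27 genes are filled on the left side in total RNA, Rps9 and Rps2 alone in RPF, and 18 on the right side in TE.

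The spread of the genes around their own median was examined in each library, as the log2 of CPM plus 0.5 less the median of the 33. In total RNA, 17 of the 33 genes shifted by less than 0.25 between genotypes on this scale. Rps20 shifted by -0.55, the lowest value, and Rps27l by 0.87, the highest. The SD of the shifts over genes was 0.33 in total RNA and 0.22 in RPF, where 28 genes shifted by less than 0.25 and Rps2 stood apart at 0.82. These are descriptions with no test.

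By position in the subunit, 12 of the 14 head proteins and 16 of the 18 body and platform proteins were decreased in total RNA, with median log2 fold changes of -0.73 and -0.76. Rps27l, which was not called, was placed in neither group. Of the 11 genes that host a small RNA gene in the annotation, 10 were decreased (median -0.86), as were 18 of the 22 that do not (median -0.70). By pyrimidine runs, the median was -0.81 for the 13 genes with a run of at least 7 and -0.74 for the 12 with a shorter run. A run at the edge of its window, as in Rps3, Rps15, Rps3a1 and Rps13 among the shorter ones, may be cut short by it. The split therefore sorts windows and cannot tell genes with a TOP run from genes without. Of 48 genes of the large (60S) subunit, 44 were decreased and 0 increased in total RNA (median -0.69). Rpl28, Rpl24, Rpl36 and Rpl10 were the 4 that were not called.

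Of 24 40S assembly factors and partners tested, 18 were increased in total RNA, 2 were decreased and 4 were not called, with a median log2 fold change of 0.49. The 2 that fell were Rack1, a WD-repeat protein that sits on the 40S head (log2 fold change -0.66 ± 0.09, edgeR adjusted p = 5.1e-04), and Emg1, which methylates a pseudouridine of 18S rRNA (-0.28 ± 0.07, edgeR adjusted p = 0.012). Among those that rose were Riok3, a kinase of late 40S precursors (0.79 ± 0.05), Tsr1, which is bound to 40S precursors in the cytoplasm (0.74 ± 0.06), and Bysl, a factor of 40S precursors (0.73 ± 0.08). The list also held Nle1, which is known from assembly of the 60S subunit and had the largest rise of the list (1.09 ± 0.07). The genes named in this list were chosen after their values were seen. These changes are relative to the RNA sequenced and not per cell. The paper reports less mRNA per cell in activated *Rnmt* cKO cells, and states that rises are overestimated and falls underestimated for this reason. A rise given here need not be a rise per cell.

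In RPF, 1 of the 33 genes was decreased and 1 was increased, whereas 15.7% of 11428 genes tested were decreased and 14.1% increased. The median log2 fold change of the 33 was -0.09, beside 0.008 for all genes, and 31 genes did not pass the test. Rps9 was the gene that fell, at 1235, 1136 and 1222 CPM in controls and 938, 1036 and 889 CPM in *Rnmt* cKO cells, with no overlap. Its log2 fold change was -0.33 ± 0.08 (edgeR adjusted p = 0.015), and it was not called without *Rnmt* cKO replicate 1. Rps2, which lies at the mRNA entry site and is methylated on arginines by Prmt3, was the gene that rose, at 175, 148 and 169 CPM in controls and 284, 288 and 243 CPM in *Rnmt* cKO cells. All 3 *Rnmt* cKO libraries were above the controls, with a log2 fold change of 0.73 ± 0.09 (edgeR adjusted p = 9.0e-04). For the same gene total RNA was 630, 665 and 552 CPM in controls and 387, 337 and 390 CPM in *Rnmt* cKO cells, so that Rps2 fell in total RNA and rose in RPF.

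The other named members did not pass the test in RPF. Rps3 had 1929, 1889 and 1943 CPM in controls and 1949, 1959 and 1785 CPM in *Rnmt* cKO cells, and Rps19 had 324, 360 and 404 CPM and 348, 387 and 378 CPM. Both overlapped, with log2 fold changes of -0.02 ± 0.07 and 0.03 ± 0.09. Rps20 was at 258, 280 and 290 CPM in controls and 294, 261 and 239 CPM in *Rnmt* cKO cells (log2 fold change -0.06 ± 0.08). Rps18, which lies in the head, was next below Rps2 with 35.1, 40.6 and 41.5 CPM in controls and 39.8, 49.3 and 45.7 CPM in *Rnmt* cKO cells. These overlapped (log2 fold change 0.20 ± 0.11). Among genes whose average log2 CPM in RPF reached 4, the lowest after Rps9 were Rps21, with 147, 120 and 156 CPM in controls and 136, 118 and 101 CPM in *Rnmt* cKO cells (-0.25 ± 0.13), and Rps27a, with 23.9, 16.4 and 21.4 CPM and 19.3, 17.7 and 17.2 CPM (-0.19 ± 0.15). Fau, the other fusion gene, had 18.9, 18.9 and 24.2 CPM in controls and 24.6, 19.9 and 26.8 CPM in *Rnmt* cKO cells (0.19 ± 0.15). All of these overlapped between genotypes.

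The paralogues overlapped in RPF as well. Rps27 had 3.09, 2.26 and 3.18 CPM in controls and 1.98, 3.02 and 2.45 CPM in *Rnmt* cKO cells (-0.19 ± 0.32), and Rps27l had 186, 188 and 186 CPM and 205, 197 and 183 CPM (0.07 ± 0.06). Rps4x had 40.3, 31.1 and 37.9 CPM in controls and 35.7, 39.3 and 22.8 CPM in *Rnmt* cKO cells (-0.14 ± 0.19), with *Rnmt* cKO replicate 3 the lowest. Rps28 and Rps29 had the lowest fold changes, -0.54 and -0.46, with standard errors of 0.40 and 0.46, and are named after their values were seen. Each was counted in only 5 to 24 reads per RPF library, so that a log2 change of the size of these standard errors was not detectable. For Rps13, with 32, 20 and 26 RPF reads in controls and 22, 21 and 10 in *Rnmt* cKO cells, the CPM did not overlap, but its log2 fold change of -0.39 ± 0.28 did not pass the test. In the 60S list, 1 of 48 genes was decreased in RPF (Rpl3) and 3 were increased (Rpl34, Rpl32 and Rpl35a), named because the counts are small. Of the 24 assembly factors and partners, 6 were increased and 0 decreased.

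**Figure D2:**
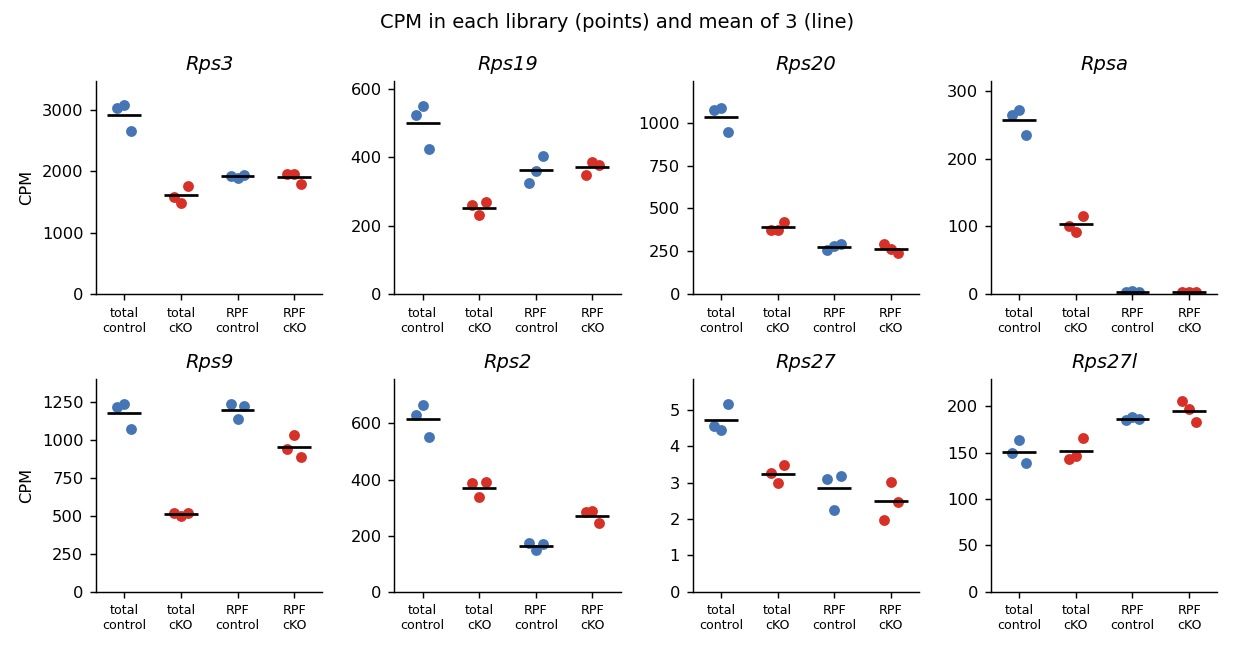
CPM of 8 of the 40S genes in each library, with points for libraries and a line at the mean of 3 per group; the axes of all panels start at 0. Total RNA falls from control to *Rnmt* cKO in 7 of the 8, Rps27l overlaps, and in RPF the groups separate for Rps9 and Rps2 and overlap for the other 6.

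RPF over total RNA, which approximates translation efficiency (TE), was compared between genotypes by the interaction term of a model of all 12 libraries, and so it uses the same libraries as the tests above. TE was increased in *Rnmt* cKO cells for 19 of the 33 genes and decreased for 0, whereas it was increased for 3.24% and decreased for 6.57% of 10668 genes tested. This model had no term for the replicate number. With that number as a block, 22 of the 33 were increased and 0 decreased, where 426 of the 10668 genes were increased and 777 decreased. The median log2 change in TE of the 33 was 0.75, beside 0.04 for all genes, and 32 of the 33 had a positive value. Rps2 had the highest value, 1.46 ± 0.14 (edgeR adjusted p = 3.0e-05), followed by Rps20 with 1.35 ± 0.13 (edgeR adjusted p = 2.8e-05) and Rpsa with 1.13 ± 0.25 (edgeR adjusted p = 0.011). Rpsa rests on few footprints, at 32, 30 and 26 reads in the control RPF libraries and 29, 30 and 11 in those of *Rnmt* cKO cells, and it was not called without control replicate 1 or without *Rnmt* cKO replicate 1. Rps18 (1.08 ± 0.15), Rps19 (1.01 ± 0.15), Rps4x (1.00 ± 0.19) and Rps3 (0.84 ± 0.11) were also increased.

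At the other end, TE was called neither way for Rps27l (0.06 ± 0.11), Rps27a (0.21 ± 0.26), Fau (0.46 ± 0.19) or Rps27 (0.34 ± 0.29). Rps13 (0.05 ± 0.24), Rps28 (0.05 ± 0.39) and Rps6 (-0.07 ± 0.26) were also close to 0, and Rps6, named with Rps28 after its values were seen, had the single negative value. Of the head proteins 9 of 14 were increased in TE and of the body and platform proteins 10 of 18, with medians of 0.79 and 0.76 and Rps27l again in neither group. In the 60S list 26 of 48 were increased and 0 decreased (median 0.72). The assembly factors and partners had a median of -0.19, with 9 of 24 decreased and Rack1 alone increased (0.55 ± 0.12, edgeR adjusted p = 0.011). A positive TE value here is a ratio relative to all genes in RPF and in total RNA and gives no number of ribosomes per cell.

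Within each genotype the same ratio ordered the genes against all other genes. In controls 24 of the 33 had lower RPF than total RNA, 2 had higher and 7 were not called, where 30.0% of all genes were lower and 44.6% higher. The median was -1.31 on the log2 scale, with a range from -6.20 for Rpsa to 0.93 for Rps26. In *Rnmt* cKO cells 17 were lower and 11 higher, where 29.7% and 44.8% of all genes were, with a median of -0.44. These counts differ with how much of a gene's sequence is its own, which is given with the shared sequence below. Rpsa was again the lowest, at -5.07, and Rps26, a platform protein at the mRNA exit site, the highest, at 1.77. Rps3 went from -0.60 ± 0.08 in controls to 0.24 ± 0.08 in *Rnmt* cKO cells, and Rps19 from -0.46 ± 0.11 to 0.56 ± 0.11, past the threshold in opposite directions. Rps27l was at 0.31 and 0.37 (standard error 0.08 in both), above the threshold in both genotypes.

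**Figure D3:**
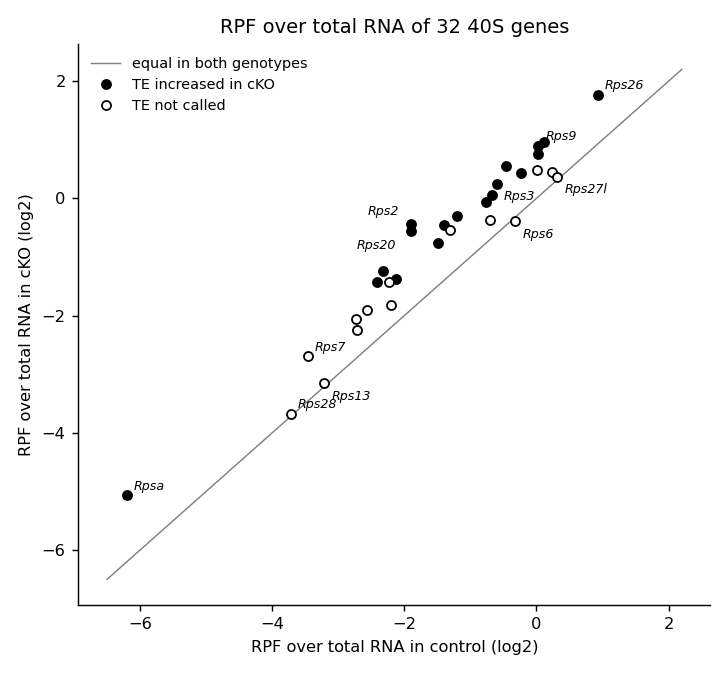
Log2 ratio of RPF to total RNA in control (x) and *Rnmt* cKO (y) cells for 32 of the 33 genes, with a line of equality. Filled points are the 18 of these with increased TE, and 31 of the 32 lie above the line, from Rpsa at -6.20 and -5.07 to Rps26 at 0.93 and 1.77.

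Levels of the 40S genes are given here per kilobase of coding sequence, which scales for coding length only. Total RNA reads also cover untranslated sequence, so that the order of genes in total RNA depends on this divisor. The transcript used for Rps20, for example, has 3706 bases, of which 357 are coding. In control total RNA, Rps3 had 4003 ± 319 CPM per kb (SD, n = 3), Rps20 had 2903 ± 219 and Rps9 had 2021 ± 158. Rps6 was lowest with 11.8 ± 0.962 CPM per kb and Rps27 next with 18.7 ± 1.55. In control RPF, Rps3 had 2634 ± 38.8 CPM per kb and Rpsa was lowest (4.03 ± 0.933), although Rpsa had 291 ± 22.7 CPM per kb in total RNA.

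This order went along with how much of each gene can be told from other genes. The authors' counts are of uniquely aligned reads, and every one of the 33 coding sequences shares at least one stretch of 29 bases with an annotated pseudogene in GENCODE vM21. The share of coding 29-base stretches found in no other gene was 0% for 12 genes, among them Rps6, Rps27, Rps27a, Fau and Rpsa, and 78.9% for Rps3, with a median of 4.26%. For Rps2, the gene that rose in RPF, it was 8.11%, and for Rps9, which fell, 42.8%. Across the 33 genes, which are not independent replicates, this share and the control level per kb had a Spearman's rho of 0.88 in total RNA and 0.90 in RPF (Pearson's r with log2 levels 0.66 and 0.71). For Rpsa 45.1% of 29-base stretches of the whole transcript, but none of those in the coding sequence, were found in no other gene. A level given here is that of a gene's uniquely aligned reads.

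The fold change of total RNA and this share had a weaker relation, described without a test (Spearman's rho -0.26, Pearson's r -0.03). For the change in TE the values were 0.41 and 0.14, and for the log2 ratio of RPF to total RNA in controls 0.39 and 0.37. Among the 10 genes with a share above 10%, 9 were decreased in total RNA with a median log2 fold change of -0.81, Rps27l being the exception, and 19 of the other 23 were decreased with a median of -0.73. For TE, 9 of the 10 and 10 of the 23 were increased, with medians of 0.84 and 0.72. The ratio of RPF to total RNA within a genotype differed between these groups, described without a test. In controls 6 of the 10 were lower in RPF and 2 higher (median log2 ratio -0.49), and of the 23 others 18 were lower and 0 higher (median -2.13). In *Rnmt* cKO cells 1 of the 10 was lower and 7 higher (median 0.35), whereas 16 of the 23 were lower and 4 higher (median -1.24), so that the medians had opposite signs. Reads that aligned in several places made up 28.7 to 30.1% of all reads in control total RNA and 24.3 to 27.3% in *Rnmt* cKO total RNA, so that this share moved with genotype in total RNA, and its part in the fold changes was not tested. In RPF it overlapped, at 22.9 to 25.4% in controls and 23.5 to 31.1% in *Rnmt* cKO cells. Reads outside annotated genes also moved with genotype in total RNA, at 5.341, 5.630 and 5.997% in controls and 8.207, 8.138 and 7.239% in *Rnmt* cKO cells, and their part was not tested either. Reads counted on 108 pseudogenes named after a 40S gene came to 95.0, 97.2 and 84.7 RPM (reads scaled to the library's counts on genes) in the control total RNA libraries and 51.9, 50.6 and 48.1 RPM in those of *Rnmt* cKO cells. They were lower in every *Rnmt* cKO library, as were those of the 40S genes together. In RPF they came to 52.2, 43.8 and 55.5 RPM in controls and 46.0, 44.1 and 40.3 RPM in *Rnmt* cKO cells, which overlapped.

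**Figure D4:**
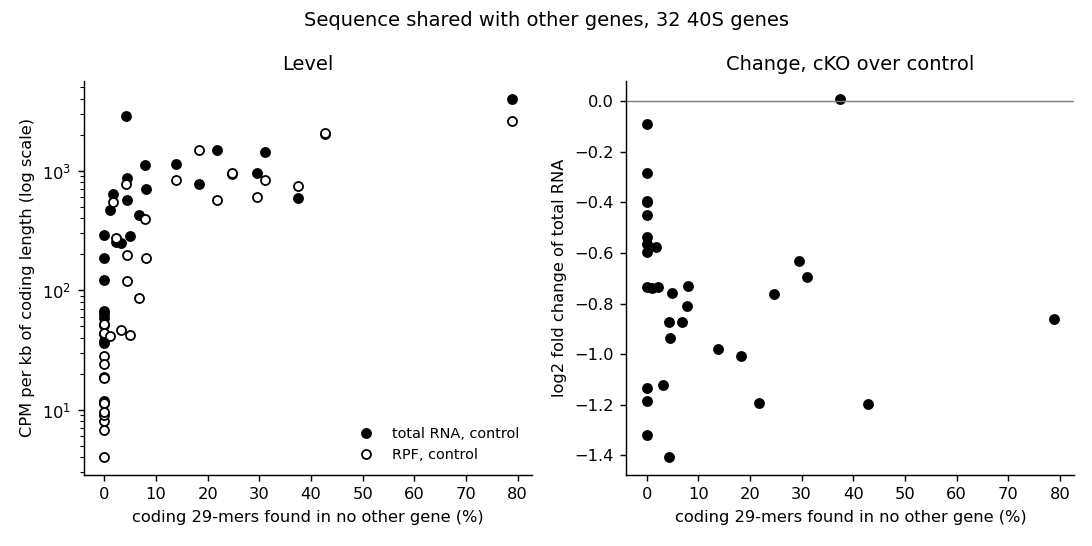
Share of coding 29-base stretches found in no other gene (x, percent) against the control level in CPM per kb of coding sequence on a log scale (left, filled for total RNA and open for RPF) and against the log2 fold change of total RNA (right), one point per gene for 32 of the 33 genes. Genes with a share of 0 reach down to 4.03 CPM per kb on the left, and on the right they lie between -1.32 (Rpsa) and -0.09 (Rps6).

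Cell type markers were examined because the libraries are of bulk cells. The 7 CD4 T cell markers summed to 3306, 3212 and 3045 CPM in control total RNA and 2399, 2365 and 2709 CPM in *Rnmt* cKO cells, and all were detected, with Cd28 having the most counts. The sum was lower in every *Rnmt* cKO library, and likewise in RPF (6568, 5843 and 6113 CPM in controls, 4872, 4351 and 5052 CPM in *Rnmt* cKO cells), so that it moved with genotype, and its part in the result was not tested. The members differed, since in total RNA the mean went from 450 to 192 CPM for Cd3g, from 436 to 261 CPM for Cd3d and from 470 to 298 CPM for Cd5, but from 1094 to 1086 CPM for Cd28 and from 124 to 133 CPM for Cd3e. Cd4 itself was at 349, 323 and 315 CPM in controls and 297, 270 and 315 CPM in *Rnmt* cKO cells. The 4 B cell markers summed to 7.68, 5.23 and 26.8 CPM in control total RNA and 68.8, 78.5 and 16.5 CPM in *Rnmt* cKO cells, with Ms4a1 having the most counts. The B cell sum was thus high in *Rnmt* cKO replicates 1 and 2, while replicate 3 lay within the control range, and it was so in RPF too (10.4, 7.67 and 36.3 CPM in controls, 117, 128 and 19.4 CPM in *Rnmt* cKO cells). The median difference of the 33 genes from the control mean was -0.68, -0.83 and -0.76 on the log2 scale in total RNA in *Rnmt* cKO replicates 1, 2 and 3, and 0.02, -0.04 and -0.18 in RPF. Replicate 3 thus lay between the other two in total RNA and was the lowest in RPF, and the part of the B cell markers in these values was not tested. The CD8 T cell markers, Cd8a and Cd8b1, summed to 21.4, 21.3 and 41.6 CPM in control total RNA and 26.4, 21.3 and 9.83 CPM in *Rnmt* cKO cells. The 4 myeloid markers summed to at most 0.813 CPM in a total RNA library, Cd14 and Csf1r being at 0 in the controls, and the 3 NK cell markers, led by Klrd1, to between 2.71 and 4.10 CPM. The mean of Klrd1 went from 3.30 to 2.52 CPM, but the other NK cell markers, with few reads, were higher in every *Rnmt* cKO library. In total RNA, Ncr1 had 2, 2 and 0 counts in controls and 7, 12 and 9 in *Rnmt* cKO cells. Klrb1c had 0, 0 and 1 counts in controls and 5, 9 and 6 in *Rnmt* cKO cells, and the part of these markers was not tested.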

How the data were processed

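Per the paper's methods, only read 2 was used, since read 1 had failed, and the authors removed adapters with Cutadapt and reads of rRNA and tRNA with Bowtie, aligned the rest to mm10 (GENCODE vM12) with STAR 2.5.2b and deposited raw counts of uniquely aligned reads per gene. Their deposited table also holds per-library signal values (reverse-strand counts over an effective library size), which were used to choose the genes and the strand; its fold changes and p-values were not used. The reverse-strand counts gave the signal values within 0.1% for every gene compared.

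Genes with a CPM above 1 in at least 3 libraries of a kind were compared with TMM and the quasi-likelihood test of edgeR 4.0.16 in R 4.3.3 (Benjamini-Hochberg, 0.05), and TE by the term for genotype by library kind in 1 model. RiboDiff was not used here. Replicates are separate libraries numbered 1 to 3 in the labels, and p-values measure the spread between these. The counts do not separate duplicate reads. Gene names, positions and biotypes came from GENCODE vM21, where 49326 of 49585 genes were found. The scripts were tested on simulated counts. Alternatives included DESeq2 1.42.0, other scalings and filters and leaving out each replicate. Figures were made with matplotlib 3.10.9.

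The genes, the lists and the tests were chosen with earlier results of these data known. The rule for named genes took, from those whose average log2 CPM reached 4, the 3 lowest and 3 highest fold changes in total RNA, RPF and TE, with Rps3, Rps19, Rps4x, Rps27, Rps27l, Rps27a, Fau, Rpsa and Rps4l. Others were chosen with their values in view. 1 of the 33 genes is counted among them but is not reported here by itself or drawn as a point.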

Additional observations from a re-analysis of the deposited data

Results flagged for a closer look

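Reads on the strand opposite to the 40S genes, which are not in the counts tested and enter only the alternative with unstranded counts, were higher in every *Rnmt* cKO library than in every control library in both kinds of library. They came to 13.2, 12.1 and 11.9 RPM (reads scaled to the library's counts on genes) in control total RNA and 14.7, 14.5 and 16.4 RPM in *Rnmt* cKO cells (mean 15.2), and to 32.9, 24.9 and 26.9 RPM in control RPF and 42.2, 41.1 and 33.7 RPM in *Rnmt* cKO cells (mean 39.0). Of these reads, 78.3% lay on the strand opposite to Rps25, where the annotation has Trappc4 and Ccdc84, and 14.9% opposite to Rps18, where it has Vps52. Without the reads opposite to Rps25 the genotypes overlapped, at 2.89, 3.17 and 3.82 RPM in control total RNA and 2.59, 3.14 and 2.74 RPM in *Rnmt* cKO cells, and at 8.63, 8.69 and 6.94 RPM in control RPF and 9.70, 3.93 and 5.82 RPM in *Rnmt* cKO cells.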

How the results depend on the processing

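Under other scalings, filters and tests, 27 to 30 of the 33 genes were decreased in total RNA and 0 increased, with medians from -0.79 to -0.71, and 19 to 21 were increased in TE. With each replicate left out in turn there were 27 to 28 decreased in total RNA (median -0.81 to -0.68), 0 to 1 decreased and 1 increased in RPF (median -0.13 to 0.01), and 14 to 19 increased in TE (median 0.61 to 0.82). With no filter beyond 1 count, 2 genes were decreased in RPF (Rps9 and Rps21). Alternatives added after seeing the data left out Rps3a1 or the genes with low counts, or kept the 10 genes with a share of own sequence above 10%. Of these 10 genes, 9 were decreased in total RNA, 1 was decreased and 0 were increased in RPF, and 9 were increased in TE. Rps27l changed sign in total RNA with the upper quartile (-0.044) and when replicates were left out in turn (-0.049 to 0.068, with -4.6e-07 when control replicate 1 was left out), and in TE when they were left out (-0.031 to 0.16). In RPF, Rps19 changed sign with no filter (-0.0035) and on leaving replicates out (-0.054 to 0.11), Rps3 with library size in place of TMM (0.0074) and on leaving replicates out (-0.036 to 0.029), and Rps4x on leaving replicates out (-0.29 to 0.041). Rps9 in RPF lost its call without *Rnmt* cKO replicate 1 (-0.31), Rps27 in total RNA under DESeq2 (-0.53), and Rpsa in TE without control replicate 1 (0.98) or *Rnmt* cKO replicate 1 (1.02). Fau in total RNA passed with the upper quartile (-0.34), with protein-coding genes only (-0.28) and without control replicate 3 (-0.37), and Rps27a with no filter (-0.41). The causes were not tested. With the replicate number as a block, 28 genes were decreased in total RNA (median -0.76), 1 was decreased and 1 increased in RPF, and 22 were increased in TE (median 0.75). In total RNA and in RPF this block joins control and *Rnmt* cKO libraries of the same number. In TE it joins total RNA and RPF of 1 genotype and number. Deviations of total RNA and RPF libraries of the same number correlated at 0.161, 0.234 and 0.394 in controls and 0.075, 0.374 and 0.229 in *Rnmt* cKO cells. Each library correlated best with its own number, which hints that both kinds share a source that the TE test without the block does not use. Deviations of control and *Rnmt* cKO libraries of the same number correlated at -0.321, -0.238 and -0.587 in total RNA and 0.253, -0.079 and -0.015 in RPF. The main tests therefore did not take the numbers to pair the genotypes.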
